A study of Mus musculus with 4 samples.

Results

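The nuclear genes of 9 tricarboxylic acid cycle enzymes, Cs, Idh3a, Idh3g, Ogdh, Suclg1, Sdha, Sdhb, Fh1 and Mdh2, were followed in sorted mouse regulatory T cells. They were taken by symbol, with earlier results of these data known, and all 9 were found among the 52636 genes of the deposited table. RNA had been sequenced from 4 libraries of CD4+CD62L+CD25bright cells from 7-week-old C57BL/6 mice. A pair of libraries was made from Vav1R63W mice, with a point-mutant allele of Vav1, an exchange factor and adaptor downstream of the T cell receptor. The other pair was from Vav1R63WThemis1-T-/- mice, which bear this Vav1 allele too and in addition have Themis1 deleted in T cells. No group has normal Vav1. The Cre line behind the T cell deletion and any pooling of animals are not given in the sources used here. The libraries of each group bear the replicate numbers 2 and 3, and the labels name no animal behind each library, so p-values reflect only the variation among these libraries, which may be technical. In bulk RNA, fewer cells of a type and less RNA per cell cannot be told apart.

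The tricarboxylic acid cycle runs in the mitochondrial matrix. It oxidizes the acetyl group of acetyl-CoA to carbon dioxide and hands the electrons to the respiratory chain, with succinate dehydrogenase as an enzyme of both. Its intermediates citrate, 2-oxoglutarate, succinate and fumarate also serve outside the cycle, in lipid synthesis and as substrates or inhibitors of dioxygenases that demethylate histones and DNA. Regulatory T cells are known for a strong reliance on mitochondrial oxidation compared with effector T cells.

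Reads assigned to genes numbered 13963670 to 15953194 per library, the total to which CPM values (counts per 1000000 reads) were scaled. Foxp3, the lineage transcription factor, was at 904 and 636 CPM in Vav1R63W replicates 2 and 3, and at 1014 and 737 CPM under the Themis1-T-/- label, replicates 2 and 3. The read count of Themis, the targeted gene, was 283 and 97 for Vav1R63W, and 685 and 0 for Themis1-T-/-. Replicate 2 of the latter therefore goes against its label, and each direction below is between labels. Which exons hold those reads is not visible in counts per gene. The B cell markers Ms4a1 and Pax5 stayed at 0 reads throughout, like 5 of 6 monocyte and macrophage markers, whereas Ctss was at 735 to 1003 CPM. Of the other B cell markers, Ighm was at 1111 to 1307 CPM, Cd79b had 567 to 915 reads, and Cd79a had 135 and 77 reads for Vav1R63W and 38 and 0 for Themis1-T-/-. The summed level of the B cell markers was 1179 to 1303 CPM in Vav1R63W cells and 1312 to 1370 CPM under the Themis1-T-/- label, mostly from Ighm. For the monocyte and macrophage markers it was 735 to 805 and 840 to 1003 CPM, and for 6 regulatory T cell markers 2726 to 3451 and 2823 to 3164 CPM. The part of such cells in the values below was not tested.

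The 9 genes lie on as many chromosomes, and each is given below by its Ensembl identifier and whole span in GRCm38, exons, introns and UTRs included. Upstream sequence of 3 of them is shown because they span what the values below turn on. Sdha is the member whose groups did not overlap, Fh1 the one with the widest spread, and Mdh2 the one with the highest mean level. The sequences are from RefSeq (GRCm38.p6) and end before the annotated gene start in both RefSeq and GENCODE M21. Capitals mark a match to GCGCANGCG, the recognition sequence of nuclear respiratory factor 1, in Sdha and Fh1, and to the palindrome CTCGCGAG in Mdh2. Fh1 has no capitals because no match was found. The stretches are chr13:74350281-74350490 on the minus strand for Sdha, chr1:175625636-175625885 on the minus strand for Fh1 and chr5:135778399-135778479 on the plus strand for Mdh2.
Sdha: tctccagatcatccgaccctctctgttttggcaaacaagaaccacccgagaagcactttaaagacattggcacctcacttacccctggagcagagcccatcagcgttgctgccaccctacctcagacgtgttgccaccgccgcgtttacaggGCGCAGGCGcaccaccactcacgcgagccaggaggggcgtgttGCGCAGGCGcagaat
Fh1: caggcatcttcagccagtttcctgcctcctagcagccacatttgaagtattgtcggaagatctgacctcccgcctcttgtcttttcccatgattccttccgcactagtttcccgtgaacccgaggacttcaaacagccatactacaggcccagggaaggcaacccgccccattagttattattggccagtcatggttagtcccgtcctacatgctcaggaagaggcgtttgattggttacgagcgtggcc
Mdh2: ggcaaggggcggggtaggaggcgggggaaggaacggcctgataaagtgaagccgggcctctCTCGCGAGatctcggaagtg
Windows from 250 bases before to 50 bases after each start were found for 8 of the 9 genes, 13 windows in all. Idh3a had none and was not searched. GCGCANGCG on either strand occurred in Sdha, with 3 matches, and in Ogdh. It occurred in 3 of these 13 windows and in 6.25% of all 32851 windows. The palindrome CTCGCGAG occurred in Mdh2 only, with 3 matches, in 1 of the 13 windows and in 0.919% of all windows. The cyclic AMP response element TGACGTCA occurred in Mdh2 and Ogdh (4 of the 13 and 1.79% of all windows). The YY1 sequence AAGATGGCG occurred in Idh3g (1 of 13 and 1.40%) and the E-box CACGTG in Ogdh (3 of 13 and 7.15%). A gene can have several windows, so the windows are not independent. The ETS sequence CCGGAAGT (3.89%) and the estrogen-related receptor sequence TCAAGGTCA (0.423%) occurred in none of the 13. Overlapping matches to a motif were counted as 1, and a match describes these letters only. Among the 8 genes searched, none of these 7 sequences occurred in more than 2.

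All 9 enzymes were well expressed, with 300 to 10637 reads per gene and library. Together they took 0.274% and 0.305% of the reads for Vav1R63W, against 0.277% and 0.280% for Themis1-T-/-. The group ranges of this summed share overlapped. Levels of different genes are compared per length, as TPM (transcripts per 1000000) over the longest protein-coding transcript of each gene, with errors as SD over the 4 libraries. Mdh2 stood at 682 ± 98.9 TPM and Sdhb at 540 ± 65.1 TPM, with overlapping ranges (589 to 802 and 458 to 593 TPM). Idh3g (316 ± 50.1 TPM), Suclg1 (287 ± 42.9 TPM) and Sdha (278 ± 31.1 TPM) followed with overlapping ranges and were not separated beyond their spread. Cs (147 ± 28.0 TPM) and Ogdh (120 ± 15 TPM) also overlapped, and Idh3a (75.3 ± 17.3 TPM) touched the lower end of Ogdh. Fh1 was the lowest of the 9, at 37.2 ± 20.2 TPM, and its highest library (58.0 TPM) lay below the lowest library of Idh3a (62.4 TPM). With lengths over the union of all annotated exons these ranges overlapped, at 14.5 to 67.4 TPM for Fh1 and 47.4 to 76.1 TPM for Idh3a. The same lengths gave 416 TPM for Mdh2, 411 for Sdhb and 43.1 for Fh1, and moved Sdha (292 TPM) above Idh3g (232 TPM), and Ogdh (136 TPM) above Cs (111 TPM). As a ratio, that choice moved Suclg1 furthest, to 141 TPM.

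**Figure D1:**
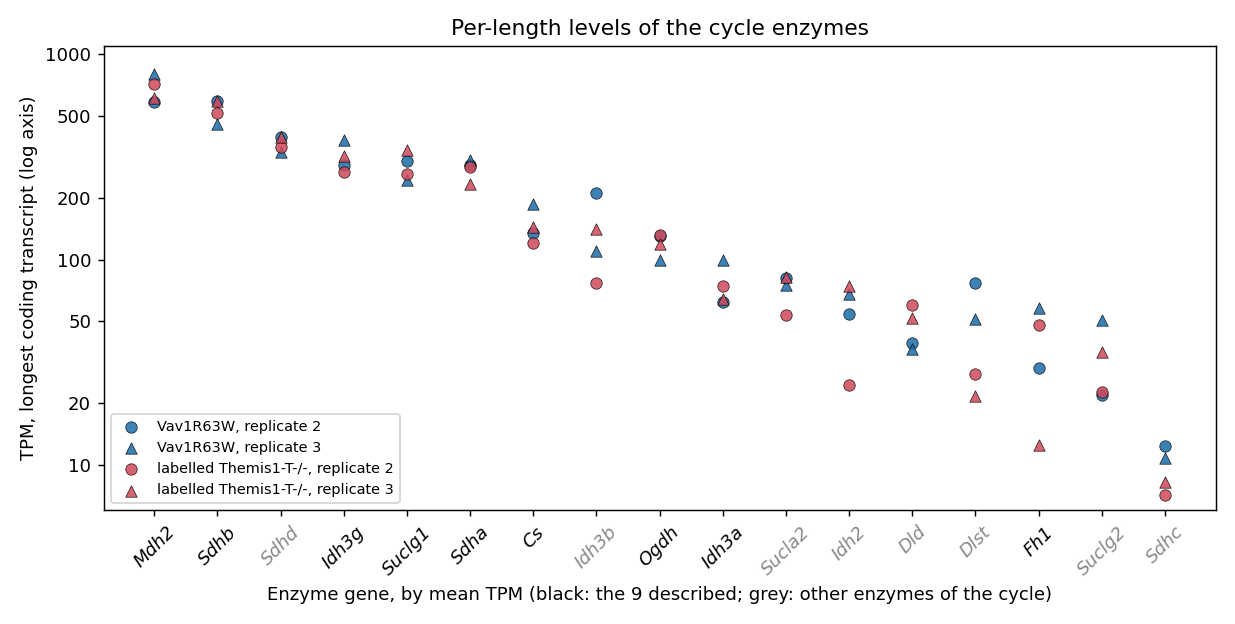
Per-length levels of the 9 enzymes and of other enzymes of the cycle. Each point is a library (TPM over the longest coding transcript, log axis), with genes ordered by their mean; colours mark the genotype label and shapes the replicate number. Mdh2 and Sdhb have the highest means and Sdhc the lowest, and Fh1 spreads from 12.5 to 58.0 TPM. With lengths over the union of exons (not drawn), the mean of Sdhd, 551 TPM, was above those of Mdh2 (416 TPM) and Sdhb (411 TPM).

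Between the genotype labels, none of the 9 enzymes passed the test. Mean levels in the libraries labelled Themis1-T-/- were 0.692 to 1.12 times those in Vav1R63W cells. Cs, Idh3a, Idh3g, Sdha, Fh1 and Mdh2 had negative log2 fold changes, and Ogdh, Suclg1 and Sdhb positive ones, so 3 of 9 were above 0, where 50.1% of all 10216 tested genes were. Their median log2 fold change was -0.15, beside 0.0019 for all genes tested. edgeR called 0 of the 9 at an adjusted p under 0.05 and 0 of all genes tested (0%), and 0 of the 9 had an unadjusted p under 0.05, where 4.98% of all genes had. The edgeR adjusted p was 1.000 for each of the 9. DESeq2 called 0 of the 9 and 1.92% of its 10748 genes, and limma-voom called 0 of the 9 and 0% of all. In the authors' deposited table, which called 1.56% of the genes with an adjusted p, the members' adjusted p ran from 0.864 (Sdha) to 0.997 (Mdh2), and their log2 fold changes from -0.27 (Fh1) to 0.18 (Suclg1). The groups did not overlap for 1 of the 9, Sdha, where they did not overlap for 33.8% of all genes tested. Both Themis1-T-/- values were the lower ones for that 1 member, as for 18.7% of all genes, and the higher ones for 0 of the 9, as for 15.1%.

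**Figure D2:**
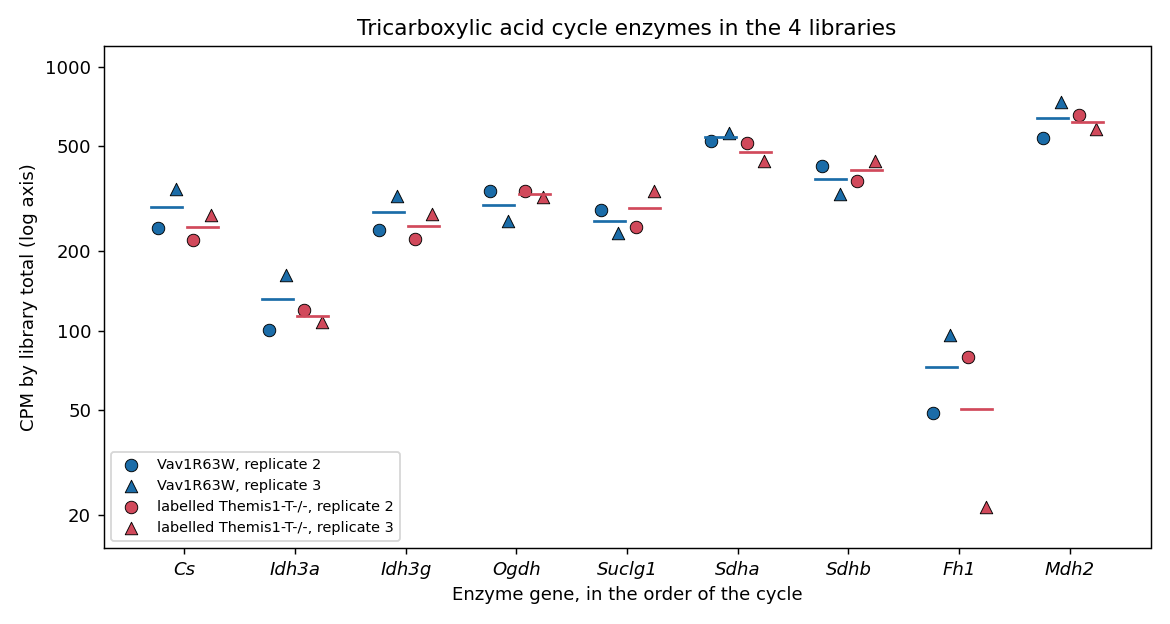
Levels of the 9 enzymes. Each point is a library (CPM by library total, log axis), in the order of the reactions, and lines are group means of 2 libraries. Points of both labels interleave for 8 enzymes, and only for Sdha do both libraries labelled Themis1-T-/- lie below both Vav1R63W libraries.

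Cs (ENSMUSG00000005683, chr10:128337734-128362479, plus strand) encodes citrate synthase, which joins acetyl-CoA to oxaloacetate and opens the cycle. It was at 246 and 344 CPM in Vav1R63W replicates 2 and 3, and at 221 and 276 CPM under the Themis1-T-/- label, replicates 2 and 3; values of other genes are given in this order. From low to high the labels alternated, so the groups overlapped. Its log2 fold change was -0.23 ± 0.27 (SE), with a 95% confidence interval of -0.96 to 0.51 (edgeR adjusted p = 1.000).

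Idh3a (ENSMUSG00000032279, chr9:54586334-54604661, plus strand) and Idh3g (ENSMUSG00000002010, chrX:73778963-73786897, minus strand) encode the catalytic alpha and the regulatory gamma subunit of the NAD-dependent isocitrate dehydrogenase, which forms 2-oxoglutarate. Idh3a was at 101 and 163 CPM under the Vav1R63W label and at 120 and 108 CPM under the other. Both libraries labelled Themis1-T-/- lay inside the Vav1R63W range. Idh3g was at 241 and 323 CPM, and at 223 and 277 CPM, again with overlapping groups. The log2 fold changes were -0.19 ± 0.35 (SE, interval -1.14 to 0.76) for Idh3a and -0.15 ± 0.26 (SE, interval -0.85 to 0.55) for Idh3g. Per length, the gamma subunit exceeded the alpha subunit 4.65 and 3.84 times for Vav1R63W, against 3.62 and 4.95 times for Themis1-T-/-, so this ratio overlapped between labels. Idh3b, the remaining subunit, varied more: its 4 levels in order were 214, 113, 77.9 and 149 CPM, and its ratio to Idh3a ran from 1.04 to 3.39. With lengths over the union of exons that ratio ran from 0.966 to 3.15. Idh3b shares 5 exonic bases with Nop56 on the opposite strand.

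Ogdh (ENSMUSG00000020456, chr11:6291633-6356642, plus strand) encodes the first, decarboxylating component of the 2-oxoglutarate dehydrogenase complex. It was at 338 and 260 CPM under the Vav1R63W label and at 339 and 321 CPM under the Themis1-T-/- label, so 1 Vav1R63W library lay between the others and 1 below them. Its log2 fold change was 0.17 ± 0.19 (SE, interval -0.33 to 0.68). The partners of Ogdh in the complex had values further apart. Dlst, the succinyltransferase core, was at 133 and 89.4 CPM, and at 47.8 and 39.1 CPM, without overlap, a log2 fold change of -1.33 ± 0.38 (SE). Dlst did not pass (edgeR unadjusted p = 0.0215, adjusted p = 0.900; DESeq2 adjusted p = 0.251). Dld, the dehydrogenase shared with the pyruvate complex, was at 62.5 and 59.1 CPM, and at 95.5 and 86.0 CPM (log2 0.60 ± 0.32, edgeR adjusted p = 1.000). The ratio of Ogdh to Dlst per length was 1.70 and 1.95 for Vav1R63W, against 4.75 and 5.50 for Themis1-T-/-. With lengths over the union of exons it was 4.45 and 5.10, against 12.4 and 14.4. That ratio was singled out after its values were seen and was not tested.

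Suclg1 (ENSMUSG00000052738, chr6:73248382-73276911, plus strand) encodes the alpha subunit common to both succinyl-CoA ligases, which make succinate along with ATP or GTP. It was at 286 and 236 CPM under the Vav1R63W label and at 248 and 337 CPM under the other, with the highest library and a middle one labelled Themis1-T-/-. Its log2 fold change was 0.20 ± 0.24 (SE), the highest of the 9, with an interval of -0.47 to 0.86. Suclg1 exceeded both of its beta partners per length in every library. The ADP-forming Sucla2 stood at 0.206 to 0.308 times Suclg1, and the GDP-forming Suclg2 at 0.0727 to 0.208 times. With lengths over the union of exons these were 0.349 to 0.523 and 0.161 to 0.460 times. For Suclg2 both ratios under the Themis1-T-/- label, 0.0867 and 0.105, lay between the Vav1R63W ratios. For Sucla2 the ratios were 0.268 and 0.308 for Vav1R63W and 0.206 and 0.242 for Themis1-T-/-, which did not overlap and were not tested.

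Sdha (ENSMUSG00000021577, chr13:74322254-74350280, minus strand) and Sdhb (ENSMUSG00000009863, chr4:140961203-140979193, plus strand) encode the flavoprotein and the iron-sulfur subunit of succinate dehydrogenase, which is also respiratory complex II. Sdha was at 523 and 561 CPM under the Vav1R63W label and at 514 and 441 CPM under the Themis1-T-/- label. Both of the latter were lower, yet the nearest pair, 523 and 514 CPM, had overlapping exact 95% binomial intervals (511 to 535 and 503 to 526 CPM), which cover counting error only. Scaled by TMM, the normalization of the edgeR test, that pair stood at 511 and 510 CPM. The log2 fold change of Sdha was -0.16 ± 0.14 (SE, interval -0.55 to 0.23, edgeR adjusted p = 1.000). Sdha also had the smallest unadjusted p of the 9, at 0.326.

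Sdhb was at 422 and 331 CPM under the Vav1R63W label and at 369 and 441 CPM under the other, with alternating labels from low to high. Its log2 fold change was 0.14 ± 0.20 (SE, interval -0.41 to 0.68). The ratio of Sdhb to Sdha per length ran from 1.5 to 2.54, or from 1.09 to 1.84 with lengths over the union of exons. Sdhd, a membrane anchor subunit, stood at 0.666 to 0.727 times Sdhb in the 4 libraries. With lengths over the union of exons it stood at 1.31 to 1.42 times Sdhb, so which of them is higher depended on the length used, while the ratio varied little between libraries with either. Sdhc, the other anchor, was at 24.4 and 21.7 CPM, and at 14.1 and 17.1 CPM. Per length it stood at 0.0313 and 0.0325 times Sdhd for Vav1R63W, and at 0.0201 and 0.0210 times for Themis1-T-/-. These ratios did not overlap between labels with either length and were not tested. Sdhc had 225 to 342 reads per library. Reads that map to more than 1 place are on a line of their own and not in the gene counts, and their part in the low level of Sdhc was not tested.

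Fh1 (ENSMUSG00000026526, chr1:175600374-175625635, minus strand) encodes fumarase, which hydrates fumarate to malate, and it had the widest spread of the 9. Its 686 and 1393 reads for Vav1R63W and 1267 and 300 for Themis1-T-/- correspond to 49.0 and 96.7 CPM, and 79.4 and 21.5 CPM. The libraries differed 1.98-fold within Vav1R63W and 3.70-fold within the other group, and the groups overlapped. The exact 95% intervals of the 4 libraries, 45.4 to 52.8, 91.7 to 102, 75.1 to 83.9 and 19.1 to 24.1 CPM, did not overlap, so this spread exceeded counting error. The log2 fold change was -0.53 ± 0.80 (SE), with an interval of -2.70 to 1.65. Without the library labelled Themis1-T-/-, replicate 2, it was -1.72, in a fit in which the median of all genes was -0.20, and without replicate 3 of that label it was 0.11. Without Vav1R63W replicate 2 it was -0.96, and without Vav1R63W replicate 3 it was 0.074. Its size and its sign thus depended on single libraries.

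Mdh2 (ENSMUSG00000019179, chr5:135778480-135790398, plus strand) encodes the mitochondrial malate dehydrogenase, which restores oxaloacetate. It was at 536 and 739 CPM under the Vav1R63W label and at 655 and 582 CPM under the Themis1-T-/- label, both of which lay inside the Vav1R63W range. Its log2 fold change was -0.023 ± 0.21 (SE), the one nearest to 0 among the 9, with an interval of -0.60 to 0.56. Cs, which uses the oxaloacetate, stood at 0.168 to 0.236 times Mdh2 per length, or 0.208 to 0.292 times with lengths over the union of exons.

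**Figure D3:**
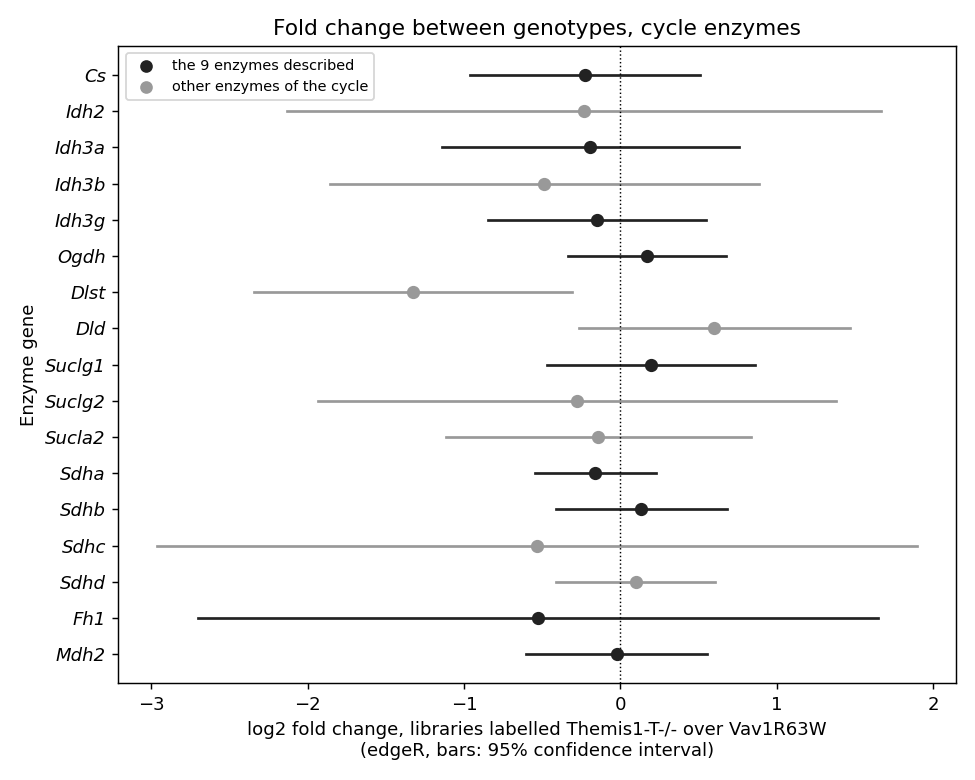
Log2 fold changes of the 9 enzymes and of other enzymes of the cycle between labels, from edgeR, with 95% confidence intervals. All 9 intervals of the enzymes described (black) include 0, those of Fh1 and Idh3a being the widest, and among the others (grey) the interval of Dlst lies below 0 without an adjustment for the number of genes.

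The spread between replicates set what these libraries could resolve. The difference between the means of log2 CPM of the groups was smaller than the difference between the replicates of either group for 6 of the 9, as for 40.9% of the 2805 tested genes in the same range of mean CPM. It was smaller than that of 1 group for Idh3a, Ogdh and Sdha. A difference of 2-library means varies less than a difference of single libraries, so this count alone does not measure the change. Over the 9 enzymes, the median absolute difference of log2 CPM was 0.42 between the Vav1R63W libraries, 0.26 between the libraries labelled Themis1-T-/- and 0.17 between the groups. For the 2805 genes, these medians were 0.32, 0.41 and 0.27. Apart from Fh1, the members' 95% intervals of the log2 fold change lay between -1.14 (Idh3a) and 0.86 (Suclg1), each without adjustment for the number of genes.

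**Figure D4:**
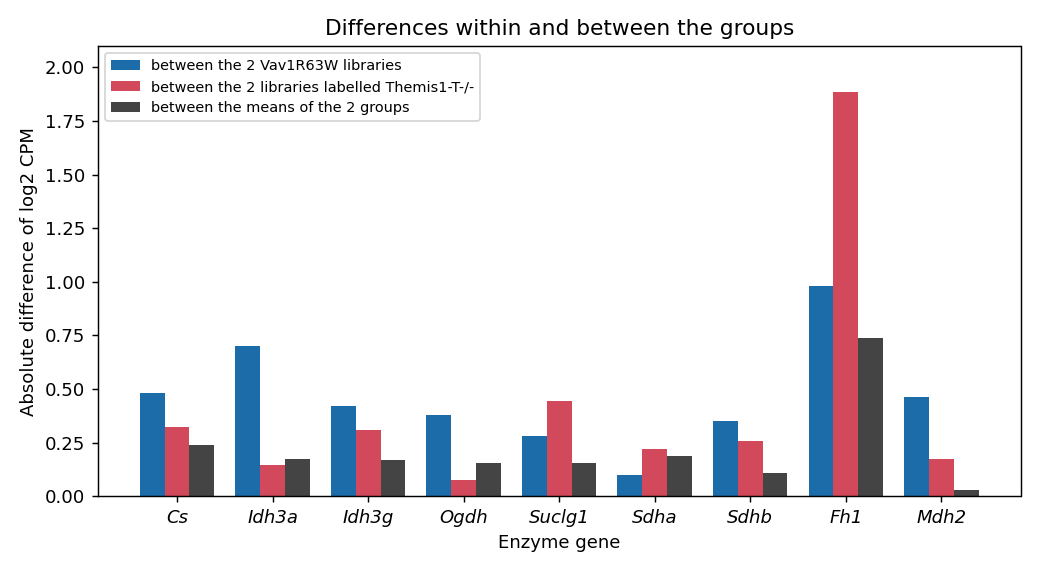
Absolute differences of log2 CPM for each of the 9 enzymes, between the libraries of a label and between the label means. Fh1 has the tallest bars, at 0.98 and 1.89 within the labels, and the bar between label means is the shortest of the 3 for 6 of the 9.

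Vav1R63W replicate 3 was an extreme library for every member, a pattern noticed after the values were seen. It had the highest CPM for Cs, Idh3a, Idh3g, Sdha, Fh1 and Mdh2 and the lowest for Ogdh, Suclg1 and Sdhb, so it was highest or lowest for 9 of 9. That held for 50.1% of the tested genes in the same range of mean CPM and for 47.0% of all genes tested. Its total of 14398002 reads lay within the range of the others. Over all genes tested, the library labelled Themis1-T-/-, replicate 3, was most often highest or lowest (59.2%), and it was so for 4 of the 9 members. It also had the fewest genes with a read, 10809 against 11722 to 12049. Without Vav1R63W replicate 3, 7 of the 9 log2 fold changes were positive and their median was 0.074, whereas without Vav1R63W replicate 2 the median was -0.26. Sdha kept a negative and Ogdh a positive fold change whichever library was left out, between -0.25 and -0.081 and between 0.015 and 0.34. The direction of the other 7 changed with at least 1 omission, in fits whose median over all genes ran from -0.20 to 0.082.

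**Figure D5:**
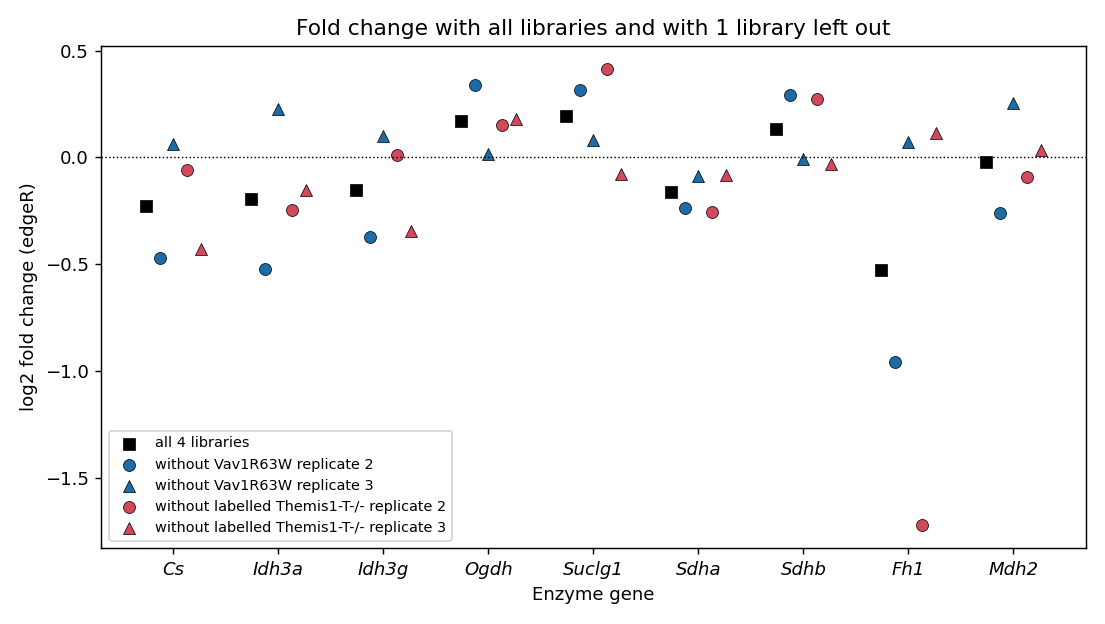
Log2 fold change of the 9 enzymes with all 4 libraries (squares) and with 1 library left out (colour: label, shape: replicate number of the omitted library). Only Sdha and Ogdh stay on the same side of 0 throughout, and Fh1 moves from -1.72 to 0.11.

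The rest of the cycle and the genes around it were also without calls in edgeR or DESeq2, and each list had at most 1 gene with an unadjusted edgeR p under 0.05. Of the 9 other cycle enzymes 0 passed in either direction, 3 had a positive and 6 a negative log2 fold change, and the median was -0.23, with 1 unadjusted edgeR p under 0.05 (Dlst). The groups did not overlap for Dld, higher under the Themis1-T-/- label, and for Dlst and Sdhc, lower there. Among all genes tested they did not overlap for 33.8%, so 1 higher and 2 lower of 9 is near that share. Of 17 tested genes for entry into and refilling of the cycle 0 passed and 13 were positive (median 0.20), with Pdhx, a pyruvate dehydrogenase component, at 22.2 ± 0.236 and 60.2 ± 10.04 CPM and Glud1, glutamate dehydrogenase, at 222 ± 21 and 168 ± 14.6 CPM (SD, n = 2 each). Of 9 tested cytosolic counterparts and carriers 0 passed and 3 were positive (median -0.34). Acly, which splits the exported product of Cs back into acetyl-CoA, was at 240 ± 25.4 and 119 ± 7.10 CPM (SD, n = 2 each; edgeR adjusted p = 0.900, DESeq2 adjusted p = 0.0820), and Aco1 at 97.2 ± 5.06 and 45 ± 29.5 CPM. Of 13 tested genes for succinate dehydrogenase assembly, iron-sulfur clusters and lipoate 0 passed and 6 were positive (median -0.062), with Glrx5 at 150 ± 17.5 and 174 ± 6.66 CPM and Sdhaf2, which helps to attach the flavin of Sdha, at 115 ± 2.46 and 95.6 ± 5.92 CPM.

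Among 14 tested regulators of nuclear mitochondrial genes 0 passed and 8 were positive (median 0.093). Nrf1, whose recognition sequence occurred in the windows of Sdha and Ogdh, was at 149 ± 50.4 and 71.4 ± 44.4 CPM (SD, n = 2 each, log2 -1.03 ± 0.60, edgeR adjusted p = 1.000). Sdha and Ogdh had log2 fold changes of opposite sign (-0.16 and 0.17), and a link of either to Nrf1 was not tested. Ppargc1b, a coactivator, was counted 88 and 104 times under the Vav1R63W label and 0 times in each Themis1-T-/- library (edgeR adjusted p = 0.900, DESeq2 adjusted p = 0.137). Against a floor of 3 reads per library this is at least 33.5-fold lower, a bound that covers counting error only. Prf1, listed as a CD8 T cell marker, had 581 and 1 reads in those libraries, so replicates of a label can also differ by a near absence of reads. The median of the list is the same with Ppargc1b at that bound. Of 11 genes that follow mitochondrial mass 0 passed and 6 were positive (median 0.13), with Phb at 226 ± 26.1 and 259 ± 24.5 CPM and Tomm22 at 291 ± 16.4 and 248 ± 13.2 CPM.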

How the data were processed

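RNA sequencing counts of 4 libraries were used. The authors used FastQC, Trim Galore, STAR and MultiQC to check, trim, align and summarise the reads, per the submitters' processing notes. Versions are not given in the sources used here. The series' design text names Ensembl release 90 and the processing notes name mm9, which are different builds. The deposited files hold raw counts per gene, unstranded and for each strand, and the unstranded column equals the raw counts of the authors' deposited table for all 52636 genes. That table also holds the authors' fold change as a linear ratio, its log2 value and p-values. Its 4 columns of normalized counts were not used. Lines that name no gene held 21.1% to 23.1% of reads and were left out. Symbols matched 52403 gene IDs. Coordinates and lengths are from GENCODE M21 (GRCm38), by gene ID.

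CPM were scaled by library total. The test was edgeR 4.0.16 (R 4.3.3): TMM normalization (factors 0.974 to 1.02), filterByExpr (minimum count 10, minimum total 15), two-sided quasi-likelihood F test between genotypes with robust dispersions and no block, Benjamini-Hochberg adjustment over all 10216 genes tested, called under 0.05. Standard errors are the fold change over the square root of F, and 95% intervals use the test's degrees of freedom. The scripts were tested on simulated data with the same dispersion for every gene, which does not measure their power for these libraries. Alternatives were DESeq2 1.42.0, limma-voom (limma 3.58.1), other scalings, filters and strand columns, the replicate number as a block, and leaving out each library. The exons of the 9 genes overlap 0 bases of other genes' exons, and their strand columns sum to the unstranded count within 1 read. The members and gene lists were chosen with earlier results of these data known. Named are all 9 members, Themis, Foxp3 and Il2ra, other cycle enzymes, and the 2 genes with the smallest p of each other list. Other markers and the neighbour Nop56 were named outside this rule. Some genes of the lists are not reported here. Il2ra was at 223 to 325 CPM under the Themis1-T-/- label and 274 to 310 CPM in Vav1R63W cells.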

Additional observations from a re-analysis of the deposited data

How the results depend on the processing

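All 9 members kept an adjusted p above the threshold under the 13 alternatives, the smallest being 0.570 (Fh1 without the library labelled Themis1-T-/-, replicate 2). Over all genes, DESeq2 called 206 and the other alternatives 0. In edgeR with the replicate number as a replicate block, 0 genes were called (163 at an unadjusted p under 0.05, against 509), and the median log2 fold change of the members was -0.14. The numbers are not known to pair the libraries, and the deviations of same-numbered libraries had a correlation of -0.0078 across 7364 genes, which are not independent replicates. Of 81 fold changes of members under the 9 alternatives that keep every library, 2 changed sign, both of Mdh2: 0.0033 with limma-voom and 0.0084 with the first-strand count column. No other scaling moved the median of all genes by more than 0.1, and leaving out the library labelled Themis1-T-/-, replicate 2, moved it to -0.20. Leaving out 1 library at a time gave ranges of -0.26 to 0.074 for the members' median and -0.47 to 0.063 for Cs, -0.52 to 0.23 for Idh3a, -0.37 to 0.10 for Idh3g, -0.076 to 0.42 for Suclg1, -0.030 to 0.29 for Sdhb, -1.72 to 0.11 for Fh1 and -0.26 to 0.25 for Mdh2, and changed the sign in 11 instances. Fits with 1 library in a group assume that it varies like the other group. Gene lengths for TPM and ratios and their alternative were chosen after seeing the data. With 2 libraries per group the test has 2 residual degrees of freedom. The exact counting intervals of the replicates did not overlap in either group for any member except Ogdh. For Ogdh those of the libraries labelled Themis1-T-/- overlapped, at 330 to 348 and 312 to 331 CPM.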
